A study of Mus musculus with 10 samples.

Results

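The transcripts of 47 cell cycle and DNA replication genes were followed in mouse submandibular glands after ligation of the duct. The genes were chosen by name as standard genes of the G1/S transition, of mitosis and of cell cycle inhibition. The choice was made with earlier results of these data known. All 47 were found among the 55291 genes of the expression table. In the ligated group, the duct of the right gland of C57BL/6J mice aged 8 weeks had been tied at both its ends. In the sham group, the gland had been exposed and dissected free, but its duct was left untied. Glands of both groups were taken at day 7, and 5 libraries per group, from 5 mice each per the design text, were sequenced from messenger RNA of the whole gland. The labels name no transgene, no drug beyond the pentobarbital anaesthesia and no cell sorting, so each library holds RNA of every cell type in the dissected piece. Values are given as FPKM, a level per length of transcript and per size of library, and are listed in the order of replicates 1 to 5.

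A cell enters the cycle when D-type cyclins with Cdk4 and cyclin E with Cdk2 inactivate the retinoblastoma protein, which frees E2F factors to switch on the genes of DNA replication. Mcm proteins, loaded with the help of Cdc6 and Cdt1, license replication origins, and later Cdk1 with cyclins A and B drives mitosis, whose genes are largely controlled through CHR elements in their promoters. Inhibitors of the Cip/Kip and Ink4 families hold these kinases back. The adult salivary gland is known as a tissue of slow turnover, and duct ligation is a standard model in which acinar cells are lost while ducts persist, whereas the germinal centres of lymphoid tissue are among the fastest dividing cell populations of the body.

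Some libraries stood apart from the rest of their group in ways that bear on every result below. Cd79a, a component of the B cell receptor, measured 101, 0.678, 0, 0.907 and 0 FPKM in the sham libraries and 73.3, 78.7, 82.5, 0.670 and 0.933 FPKM in the ligated libraries. It was thus high in sham 1 and in ligated 1, 2 and 3 and near 0 in the other 6 libraries. All 9 B cell markers and all 8 T cell markers examined were higher in each of these 4 libraries than in each of the other 6. The summed B cell markers reached 212 to 353 FPKM in the 4 libraries, against 0.0415 to 3.06 FPKM in sham 2 to 5 and 3.53 to 3.87 FPKM in ligated 4 and 5. Lymph node stroma markers followed the same split for 5 of 6 genes, with Glycam1 and Madcam1 at 0 in sham 2 to 5. Bpifa2, a secreted product of the parotid gland, was highest in sham 1 and in ligated 2, 3 and 5, at 14810, 18720, 34750 and 16880 FPKM. Sham 1 and ligated 2 and 3 therefore carried both signals, ligated 1 the lymphoid one, ligated 5 the parotid one and ligated 4 neither. The acinar enzyme Lpo was present in all libraries, between 108 and 320 FPKM. The labels give the mice as female, whereas 4 Y-linked genes measured at least 0.770 FPKM in every library and Xist at most 0.0267 FPKM. Between 12105738 and 17305591 reads were assigned to genes per library, and 3 reads in a transcript of 1 kilobase corresponded to 0.173 to 0.248 FPKM.

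Whether duct ligation changed the level of these genes was tested on log2(FPKM + 1) with limma over all genes that reached 1 FPKM in at least 5 of 10 libraries. Calls required a log2 difference of at least 1 and an adjusted p below 0.05. The filter kept 39 of the 47 genes. It left out Ccne2, Cdc6, Cdc25c, Bub1, Birc5, Cenpe, Cenpf and Cdkn2a. Of the 39, 14 were below 1 FPKM in sham 2 to 5 and in ligated 4 and so passed through the lymphoid libraries and ligated 5. In these 14 a higher ligated group was thus favoured by the filter. Cenpa and Tpx2, both called higher, are among them. Higher in ligated glands were 12 of the 39, against 17.1% of the 11856 genes tested, and 0 were lower, against 1.16%, with 0 also lower at an unadjusted p under 0.05 or by voom on recovered reads. On adjusted p alone 20 of the 39 were higher, where 56.8% of all genes were higher and 3.35% lower. The median log2 difference was 0.99 over the 39 genes and 0.526 over all genes tested. The latter fell to -0.00991 when libraries were scaled by median ratios, which left only Cdkn1a called, with Ccnd1 and Ccnd3 then on the lower side. Values of both groups were fully separate in 2 genes, Cdk4 and Cdkn1a, whereas 30.2% of all genes were higher in ligated glands without overlap. The count of 12 changed with single libraries. It was 32 without sham 1, 23 without ligated 4, 14 without ligated 5, and 5 or 6 without any one of sham 2, 3, 4 or 5 or ligated 1, 2 or 3. In RNA of whole tissue, more cells of a dividing type and more RNA per cell cannot be told apart.

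Among the G1 cyclins and kinases, Ccnd2 rose after ligation. The cyclin D2 transcript measured 11.6, 1.09, 1.91, 2.00 and 2.29 FPKM in the sham libraries. It measured 10.3, 14.1, 12.8, 6.57 and 7.95 FPKM in the ligated libraries. Every ligated library lay above sham 2 to 5, and sham 1 fell among the ligated values. The log2 difference was 1.55 ± 0.42 (SE, adjusted p = 0.0108), with means of 3.77 ± 4.37 and 10.4 ± 3.17 FPKM (SD, n = 5 per group). Cdk4, the kinase partner of the D cyclins, measured 24.5, 14.7, 9.28, 16.8 and 13.6 FPKM in the sham libraries and 27.8, 34.9, 26.1, 25.7 and 27.5 FPKM in the ligated libraries. All ligated values exceeded all sham values, although the lowest ligated library was close to sham 1, and the log2 difference of 0.86 ± 0.21 (adjusted p = 0.00668) stayed under the required size. Of its exonic bases, 19.7% are shared with Tspan31 on the other strand, and whether counting used strand is not given in the sources used here.

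Ccnd1, encoding cyclin D1, was the most abundant of these transcripts per length and showed another pattern. It measured 22.0, 20.8, 21.7, 28.8 and 26.4 FPKM in the sham libraries and 26.7, 33.5, 27.1, 42.2 and 37.4 FPKM in the ligated libraries. Its 2 highest values came from ligated 4 and 5, the ligated libraries without lymphoid transcripts, and sham 1 was not raised. The log2 difference was 0.45 ± 0.16 (adjusted p = 0.0304), below the size required for a call, and 23.4% of its exonic bases are shared with LTO1 on the other strand. Ccnd3, the D-type cyclin that lymphocytes use heavily, measured 9.51 FPKM in sham 1, 5.94 to 6.75 FPKM in sham 2 to 5, 10.5 to 11.1 FPKM in ligated 1 to 3 and 6.82 and 8.23 FPKM in ligated 4 and 5. Its values followed the lymphoid split, and its log2 difference of 0.38 ± 0.17 did not pass (adjusted p = 0.0639). Cdk2, the kinase of the G1/S transition and S phase, reached adjusted p = 0.0136 with a log2 difference of 0.61 ± 0.18, under the size required. Ccne1, encoding its partner cyclin E1, ranged from 0.124 to 2.24 FPKM in sham and from 0.996 to 2.91 FPKM in ligated glands and did not pass (adjusted p = 0.05002). Ccne2, encoding cyclin E2, stayed between 0.232 and 1.71 FPKM in all libraries.

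The licensing genes prepare origins for replication, and most of those tested were called. To show letters of control elements known for such genes, 150 bases of promoter before the RefSeq start of Mcm5 (chr8:75109359-75109508, plus strand) and of Mcm6 (chr1:128359706-128359855, minus strand) on GRCm38.p6 are printed 5′ to 3′ along the gene. Capitals mark E2F letters (TTGGCGC or, read on the other strand, GCGCCAA) and CCAAT boxes (CCAAT or ATTGG).
Mcm5: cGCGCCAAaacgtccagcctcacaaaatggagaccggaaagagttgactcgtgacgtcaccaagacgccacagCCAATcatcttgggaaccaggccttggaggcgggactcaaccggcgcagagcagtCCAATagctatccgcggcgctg
Mcm6: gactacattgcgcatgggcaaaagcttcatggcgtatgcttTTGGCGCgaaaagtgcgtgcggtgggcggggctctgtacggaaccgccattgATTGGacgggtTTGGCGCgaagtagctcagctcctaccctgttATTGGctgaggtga
Both windows held E2F letters and several CCAAT boxes and no CHR letters.

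Of 7 licensing genes tested, Cdt1, Mcm3, Mcm4, Mcm6 and Mcm7 rose, and Mcm2 and Mcm5 were not called. Mcm6, a subunit of the replicative helicase, measured 13.0, 1.71, 1.32, 2.04 and 1.51 FPKM in the sham libraries and 9.24, 14.5, 16.5, 7.04 and 9.42 FPKM in the ligated libraries. Sham 2 to 5 stayed at or below 2.04 FPKM, and sham 1 lay among the ligated libraries. The log2 difference was 1.69 ± 0.46 (adjusted p = 0.0104). Mcm5, another subunit of that helicase, measured 12.9, 0.474, 0.492, 0.455 and 1.00 FPKM in the sham libraries and 7.91, 9.40, 11.7, 2.25 and 3.23 FPKM in the ligated libraries. Sham 1 was the highest of the 10 libraries for Mcm5, and the log2 difference of 1.501 ± 0.634 did not pass (adjusted p = 0.0593). Cdt1, the loading factor that is destroyed once S phase begins, measured 6.75, 0.839, 0.920, 1.47 and 1.09 FPKM in the sham libraries and 5.30, 8.87, 9.53, 5.33 and 3.46 FPKM in the ligated libraries. It rose by a log2 difference of 1.41 ± 0.39 (adjusted p = 0.0121), with ligated 4 and 5 clearly above sham 2 to 5. The differences of the helicase subunits Mcm3, Mcm4 and Mcm7 were 1.65, 1.40 and 1.23 on the log2 scale, and that of Mcm2 was 0.69. In all 8 licensing genes ligated 3 was above ligated 1 and 2, and sham 1 was above ligated 4 and 5. Both also held in 23 of 23 mitotic genes, and the shares of all genes that did so were not counted. Cdc6, the loading factor that works with Cdt1, was low, at 0.0790 to 0.321 FPKM in sham 2 to 5, 1.63 FPKM in sham 1, 0.858 to 1.56 FPKM in ligated 1 to 3 and 0.374 and 0.347 FPKM in ligated 4 and 5.

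Of the genes of DNA synthesis and nucleotide supply, 0 of 5 were called by limma, with 4 of 5 higher at an unadjusted p under 0.05, against 62.1% of all genes, and 2 called by voom on recovered reads, against 27%. Pcna, the sliding clamp of DNA polymerases and a carrier of repair enzymes, measured 33.5, 11.6, 9.01, 13.5 and 13.0 FPKM in the sham libraries and 30.2, 33.0, 39.0, 23.6 and 24.2 FPKM in the ligated libraries. Ligated 4 and 5 lay above sham 2 to 5 and below the 4 lymphoid libraries, and the log2 difference of 0.98 ± 0.30 (adjusted p = 0.0165) fell just short of the required size. Rrm2, the S phase subunit of ribonucleotide reductase, measured 13.0, 1.52, 0.917, 1.16 and 1.82 FPKM in the sham libraries and 8.11, 8.66, 14.3, 2.01 and 4.96 FPKM in the ligated libraries. Its level in ligated 4 was close to the highest of sham 2 to 5, while sham 1 was near the top, and it did not pass (log2 difference 1.18 ± 0.57, adjusted p = 0.0902). Rrm1, the other subunit of the reductase, differed by 0.97 ± 0.30 (adjusted p = 0.0182). The nucleotide enzymes Tyms and Tk1 stayed at or below 3.04 FPKM in all libraries and did not pass, with log2 differences of 0.41 and 0.48.

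The mitotic genes were low in sham 2 to 5 and spread widely within both groups. Promoters of Cdk1 (chr10:69352913-69353062, minus strand), Cdc20 (chr4:118437344-118437493, minus strand) and Mki67 (chr7:135716380-135716529, minus strand) are printed in the same way, because they hold CHR letters (TTTGAA). Through CHR elements mitotic genes are known to be repressed in resting cells and activated late in the cycle. A match of letters does not show that the element works in these promoters. Capitals mark CHR, E2F and CCAAT letters.
Cdk1: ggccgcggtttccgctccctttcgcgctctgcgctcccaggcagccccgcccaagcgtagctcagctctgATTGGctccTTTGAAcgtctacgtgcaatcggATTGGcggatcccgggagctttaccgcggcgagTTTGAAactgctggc
Cdc20: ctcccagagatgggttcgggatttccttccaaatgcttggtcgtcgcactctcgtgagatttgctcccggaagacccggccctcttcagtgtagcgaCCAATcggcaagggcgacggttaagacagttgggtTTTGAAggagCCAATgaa
Mki67: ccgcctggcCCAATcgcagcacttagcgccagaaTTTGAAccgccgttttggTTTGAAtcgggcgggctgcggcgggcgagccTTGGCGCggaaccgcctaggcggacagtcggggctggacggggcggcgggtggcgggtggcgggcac
All 3 windows held CHR letters together with a CCAAT box, a pair known from the promoters of mitotic genes.

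Mki67, the gene of the proliferation marker Ki-67, measured 16.2, 1.10, 0.833, 0.394 and 0.890 FPKM in the sham libraries. After ligation it measured 8.83, 11.2, 17.3, 1.77 and 5.51 FPKM in the ligated libraries. Ligated 3 was the highest library and sham 1 the next, while ligated 4 was the lowest ligated library. The means of 3.88 ± 6.87 and 8.92 ± 5.87 FPKM (SD, n = 5 per group) thus overlapped widely, and the log2 difference of 1.57 ± 0.69 did not pass (adjusted p = 0.0685). These values rested on 48 to 2329 reads per library. Cdk1, the kinase of mitosis, measured 2.48, 0.451, 0.258, 0.251 and 0.130 FPKM in the sham libraries and 1.74, 2.81, 3.33, 0.594 and 1.84 FPKM in the ligated libraries. Ligated 4 lay close to sham 2 and ligated 5 close to ligated 1, and the log2 difference of 0.90 ± 0.34 (adjusted p = 0.0407) stayed under the size required. Its partner Ccnb1, encoding cyclin B1, measured 4.58, 0.195, 0.137, 0.255 and 0.322 FPKM in the sham libraries and 2.61, 2.35, 4.39, 0.430 and 1.79 FPKM in the ligated libraries. Sham 1 was the highest of all 10 libraries, and the difference of 0.87 ± 0.47 did not pass (adjusted p = 0.122). Of the 7 mitotic cyclins and kinases tested, limma called 0, with 2 higher at an unadjusted p under 0.05, against 62.1% of all genes, and voom on recovered reads called 4, against 27%. The cyclin genes Ccna2 and Ccnb2, the mitotic kinase genes Plk1, Aurka and Aurkb and the phosphatase gene Cdc25c were each higher in sham 1 than in sham 2 to 5 and ligated 4 and 5. Cdc25c, which activates Cdk1, did not exceed 0.455 FPKM, and was 0 in sham 2, 4 and 5. Ccnb2 and Pcna have pseudogene copies listed at up to 1.28 FPKM (Ccnb2-ps) and 0.594 FPKM (Pcna-ps2), with which they may share reads. Aurka, which acts at spindle poles, had the smallest difference of this set, 0.76 ± 0.46 (adjusted p = 0.163).

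Of the mitotic checkpoint and exit genes, Cdc20 and Ube2c rose. Cdc20, the activator of the anaphase-promoting complex, measured 11.3, 1.01, 0.278, 1.24 and 1.41 FPKM in the sham libraries and 10.6, 8.08, 11.9, 2.84 and 5.66 FPKM in the ligated libraries. Ligated 4 and 5 were both above sham 2 to 5, and sham 1 was exceeded only by ligated 3. The log2 difference was 1.53 ± 0.55 (adjusted p = 0.0336). Ube2c, the ubiquitin-conjugating enzyme of that complex, measured 8.03, 0.317, 0.289, 0.254 and 0.430 FPKM in the sham libraries and 4.92, 5.74, 11.5, 1.66 and 3.43 FPKM in the ligated libraries, and its difference was 1.55 ± 0.57 (adjusted p = 0.0371). Tnnc2 on the other strand shares 22.8% of its exonic bases and was listed at 0 in every library. Other fast muscle genes were present in ligated glands (Mylpf at 72.1 FPKM in ligated 4), so this 0 may not mean absence, and reads shared with Ube2c cannot be told apart. The checkpoint kinase genes Bub1 and Bub1b and Birc5, encoding survivin, did not exceed 5.05 FPKM. Bub1b did not pass (adjusted p = 0.0972), and the other two were not tested.

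Of 8 chromosome, centromere and spindle genes tested, limma called Cenpa and Tpx2 higher. Of the 8, 7 had passed the filter only through the 4 lymphoid libraries and ligated 5, among them Cenpa and Tpx2. Their higher level in ligated glands was thus partly set by the filter, and their calls are no support for a rise. Without a filter limma called neither (adjusted p = 0.0774 for Cenpa and 0.0826 for Tpx2). Cenpa, the histone variant of the centromere, measured 2.72, 0.253, 0.158, 0.226 and 0.0819 FPKM in the sham libraries and 2.23, 2.71, 4.08, 0.869 and 1.21 FPKM in the ligated libraries, with a log2 difference of 1.03 ± 0.37 (adjusted p = 0.0339). Tpx2, an activator of Aurora A on the spindle, measured 4.18, 0.282, 0.222, 0.0883 and 0.205 FPKM in the sham libraries and 2.81, 3.69, 6.14, 0.985 and 2.03 FPKM in the ligated libraries, with a difference of 1.24 ± 0.46 (adjusted p = 0.0367). In both genes ligated 4 was the lowest ligated library and still more than every one of sham 2 to 5. Top2a, the topoisomerase that untangles replicated chromosomes, ranged from 0.247 to 9.13 FPKM in sham and from 0.921 to 10.8 FPKM in ligated glands and did not pass (log2 difference 1.38 ± 0.62, adjusted p = 0.0720). The motor genes Kif11 and Kif20a, the spindle genes Nusap1 and Prc1 and the kinetochore genes Cenpe and Cenpf ranged from 0.0221 to 4.08 FPKM. None of the 4 of these that were tested passed, at adjusted p from 0.0564 to 0.119, and 29.3% of the exonic bases of Kif20a are shared with Cdc23.

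**Figure D1:**
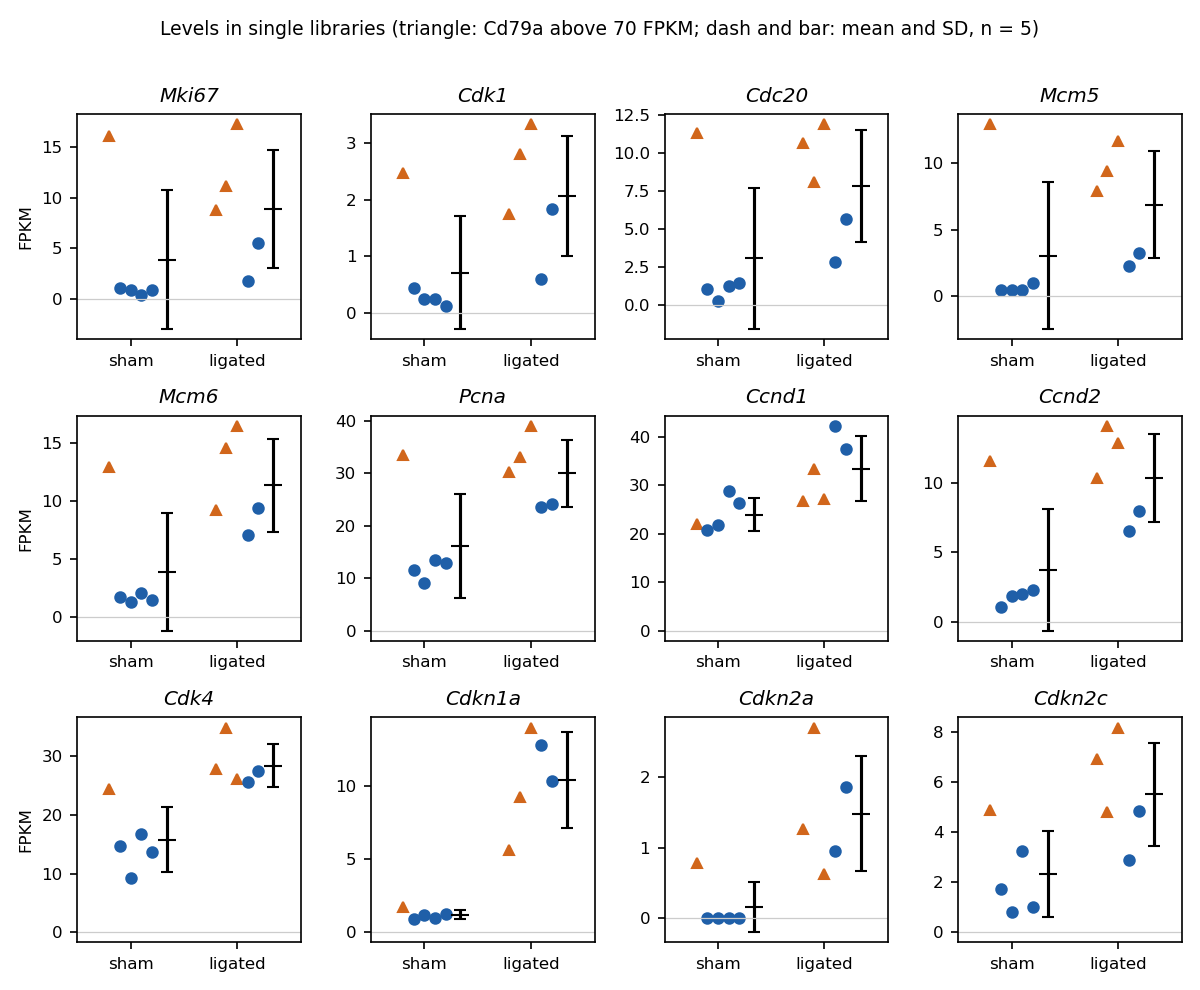
FPKM of 12 genes in each library of the sham and ligated groups, with triangles for the 4 libraries with Cd79a above 70 FPKM, circles for the other 6, and a dash with bar for the mean and SD of 5 libraries. In Mki67, Cdk1, Cdc20, Mcm5 and Mcm6 the sham triangle lies with the ligated triangles, whereas in Cdkn1a it lies with the other sham libraries, at 1.72 FPKM against 5.62 to 14.0 FPKM in ligated glands.

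The inhibitors held the gene with the smallest adjusted p of the 39. Cdkn1a, encoding p21, an inhibitor of cyclin-dependent kinases and a known target of p53, measured 1.72, 0.927, 1.17, 1.00 and 1.22 FPKM in the sham libraries. After ligation it measured 5.62, 9.28, 14.0, 12.8 and 10.3 FPKM in the ligated libraries. The groups were fully separate, sham 1 lay with the other sham libraries, and ligated 4 was the second highest. The log2 difference was 2.33 ± 0.21 (adjusted p = 8.30e-05), and Cdkn1a was called under all 20 alternative settings, at 1.83 to 3.06. The window before the first of its RefSeq starts (chr17:29090829-29090978, plus strand, GRCm38.p6) is printed because it holds, in capitals, a p53 response element with at most 1 mismatch to the consensus.
Cdkn1a: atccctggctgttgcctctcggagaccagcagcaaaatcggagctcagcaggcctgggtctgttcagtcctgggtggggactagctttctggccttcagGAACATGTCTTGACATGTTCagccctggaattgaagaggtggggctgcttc
Such an element was found in the 300-base promoters of 29 of 27025 genes (0.107%) and of 1 of the 38 cell cycle genes with an entry. A match describes the letters and does not show binding. Trp53 itself, chosen here after its values were seen, rose by 1.18 ± 0.28 (adjusted p = 0.00620). Unlike Cdkn1a, it was raised in sham 1, at 14.85 FPKM against 4.43 to 5.22 FPKM in sham 2 to 5. In a limma fit with Cd79a as a covariate its difference was 0.86, under the size required. The p53 targets Mdm2 and Ccng1, chosen in the same way, did not pass, at 0.31 ± 0.13 (adjusted p = 0.0635) and 0.28 ± 0.13 (adjusted p = 0.0708). No full list of p53 targets was examined, and the part of p53 in the rise of Cdkn1a was not tested.

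Cdkn2c, encoding the Ink4 inhibitor p18, measured 4.86, 1.72, 0.818, 3.23 and 1.01 FPKM in the sham libraries and 6.91, 4.78, 8.17, 2.88 and 4.83 FPKM in the ligated libraries. It rose by 1.05 ± 0.34 (adjusted p = 0.0220), with sham 1 and sham 4 reaching into the ligated range. Cdkn1b, encoding p27, the inhibitor typical of resting cells, ranged from 2.69 to 14.1 FPKM in sham and from 9.70 to 16.8 FPKM in ligated glands. Its difference of 0.82 ± 0.31 stayed under the size required (adjusted p = 0.0411). Cdkn2a, whose locus (chr4:89274471-89294653) yields both p16 and p19Arf, measured 0.792, 0, 0, 0 and 0 FPKM in the sham libraries and 1.27, 2.71, 0.637, 0.953 and 1.87 FPKM in the ligated libraries. It was at 0 in all sham libraries but sham 1, and was present in every ligated library. The gene was under the filter, and without a filter its log2 difference was 1.09 ± 0.25 (adjusted p = 0.0119). Its values rested on 0 reads in sham 2 to 5, 12 in sham 1 and 10 to 41 reads in ligated libraries, and the table does not separate its products.

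How the genes moved with lymphoid transcripts was examined in a second limma fit with the group and log2(Cd79a + 1) as terms. Since Cd79a took only a high and a low level, this slope compares sham 1 with sham 2 to 5 and ligated 1 to 3 with ligated 4 and 5. Of the 39 genes, 34 rose with Cd79a, against 10% of all genes tested, and 0 fell, against 1.54%, with 0 falling at an unadjusted p under 0.05 or by voom. With a filter on the mean level, which admits 46 of the 47 genes, 40 rose, against 10.9% of 16611 genes. Not rising were Ccnd1 (slope -0.05), Cdk4, Cdk2, Cdkn1a (-0.00237) and Cdkn1b. All 18 tested mitotic genes, all 7 licensing genes and all 5 genes of DNA synthesis rose, compared with 3 of 6 G1 cyclins and kinases and 1 of 3 inhibitors, and the difference between these groups was not tested. Of the 18 mitotic genes, 13 had passed the filter only through the 4 lymphoid libraries and ligated 5, so their higher level in lymphoid libraries was partly set by the filter and their count is no support for a rise. The steepest slope was that of Mki67, 0.40 ± 0.06 log2 units per log2 unit of Cd79a (adjusted p = 0.000773), followed by Mcm5 at 0.37 ± 0.05. Without sham 1, the only lymphoid sham library, 10 of 39 slopes were called, and without the 4 libraries with parotid transcripts 6 were called. With a further term for the replicate number, 0 slopes were called.

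**Figure D2:**
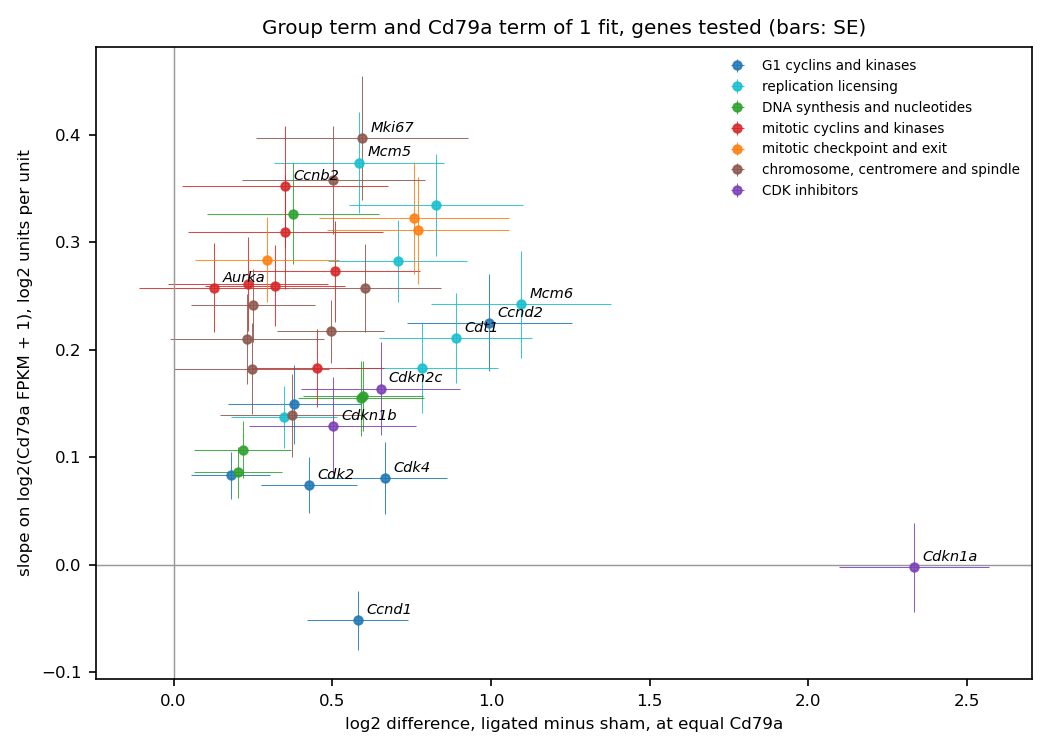
Log2 difference between ligated and sham glands at equal Cd79a (horizontal axis) and slope on log2(Cd79a + 1) (vertical axis) of the 39 genes tested, coloured by role, with bars for the standard error. Mki67 has the highest slope (0.40), Mcm6 lies at 1.09, Ccnd1 has a slope of -0.05, and Cdkn1a is farthest to the right at 2.33 with a slope of -0.00237.

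In the same fit, 2 of the 39 genes were called higher in ligated glands at equal Cd79a, Mcm6 by 1.09 ± 0.28 (adjusted p = 0.00966) and Cdkn1a by 2.33 ± 0.24 (adjusted p = 9.55e-05). Over all genes 14.5% were called higher and 1.04% lower, and 0 of the 39 were lower. All 39 differences were above 0, where the median over all genes tested was 0.45. Medians by role were 0.35 for mitotic cyclins and kinases, 0.38 for DNA synthesis and 0.43 for chromosome and spindle genes. They were 0.50 for G1 cyclins and kinases, 0.65 for inhibitors, 0.76 for mitotic checkpoint and exit genes and 0.78 for licensing genes. On adjusted p alone 15 of the 39 were higher, against 48.9% of all genes. Ccnd1 was among them, at 0.58 ± 0.16 (adjusted p = 0.0127), a larger value than in the fit without Cd79a. The part of lymphoid cells in the differences of the other genes was not tested.

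Raw levels show the size of the split. The 23 mitotic genes summed to 4.90 to 9.53 FPKM in sham 2 to 5 and to 115 FPKM in sham 1. In ligated 1 to 3 they summed to 71.5, 81.4 and 131 FPKM, and in ligated 4 and 5 to 17.3 and 48.0 FPKM. Sham 1 exceeded ligated 4 and 5 in 23 of 23 mitotic genes, and the share of all genes that did so was not counted. It lay above sham 2 to 5 in 49.6% of all genes tested. The median ratio of sham 1 to the median of sham 2 to 5 was 18.5 for mitotic genes, 4.87 for the 20 G1/S genes, 2.24 for inhibitors and 1.25 over all genes tested. The corresponding median ratio of ligated 1 to 3 to ligated 4 and 5 was 2.50, 1.69, 1.11 and 0.96. The 20 G1/S genes summed to 63.4 to 86.0 FPKM in sham 2 to 5, 186 to 234 FPKM in the 4 lymphoid libraries and 152 and 161 FPKM in ligated 4 and 5.

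**Figure D3:**
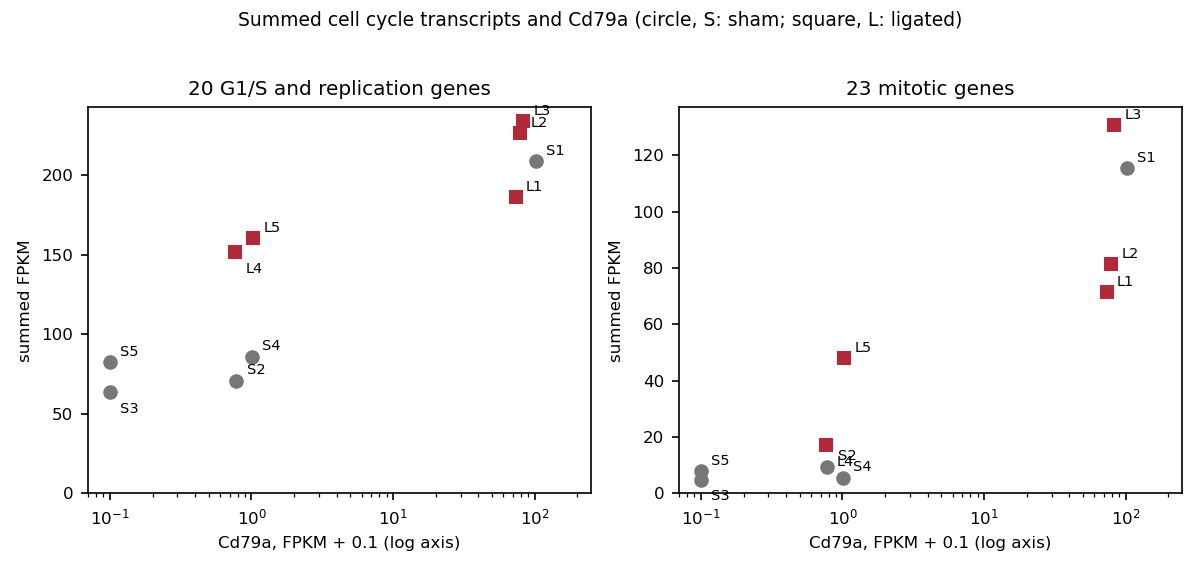
Summed FPKM of 20 G1/S genes (left) and 23 mitotic genes (right) against Cd79a on a log axis, with 1 point per library (S sham, L ligated). Libraries fall into a low and a high Cd79a level, and at the low level ligated 4 and 5 (17.3 and 48.0 FPKM in mitotic genes) lie above sham 2 to 5 (at most 9.53 FPKM).

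The libraries without lymphoid transcripts give a comparison of their own, with 4 sham and 2 ligated glands. Ligated 4 and 5 were both above all of sham 2 to 5 in 34 of the 39 tested genes, against 66.7% of all genes, and in 41 of the 47 genes. In a limma fit to these 6 libraries, 13 of the 39 were called higher, against 21.9% of all genes, and 0 lower, against 1.41%. All 39 differences were again above 0, where the median over all genes tested was 0.606. On adjusted p alone 34 were higher, where 55.1% of all genes were. Of the 39, 14 were below 1 FPKM in sham 2 to 5 and in ligated 4. These had passed the filter only through the lymphoid libraries and ligated 5. Their higher level in ligated 5 than in sham 2 to 5 was thus set by the filter. The counts that include them are no support for a rise. The 13 were Ccnd2, Cdt1, Mcm3, Mcm4, Mcm5, Mcm6, Mcm7, Cdc20, Ube2c, Mki67, Top2a, Tpx2 and Cdkn1a. Of these, Top2a and Tpx2 are among the 14 genes that passed the filter in that way, so their calls are no support for a rise. Differences ran from 1.02 for Top2a to 2.59 for Cdkn1a, while Cenpa and Cdkn2c were no longer called. Mcm6 differed by 1.80 ± 0.19 (adjusted p = 0.000122) and Mki67 by 1.25 ± 0.32 (adjusted p = 0.0106). The choice of these libraries was made after their values were seen, and ligated 5 still carried parotid transcripts.

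Between the ligated libraries without lymphoid transcripts the mitotic genes also differed. Ligated 5 was higher than ligated 4 in 23 of 23 mitotic genes, at a median ratio of 3.09, and in 15 of 20 G1/S genes, at a median ratio of 1.20. Over all genes tested the median ratio was 0.98, and 46.8% were higher in ligated 5. Ccna2 was 0.632 and 2.75 FPKM in the pair, and Plk1 was 0.508 and 2.99 FPKM. Bpifa2 differed in the same direction, from 1.46 to 16880 FPKM, and so did the summed markers of T cells (8.10 and 13.5 FPKM), macrophages (1086 and 1561 FPKM) and fibroblasts (1668 and 2801 FPKM). The summed B cell markers were 3.87 and 3.53 FPKM, and those of lymph node stroma 18.2 and 18.5 FPKM. Lower in ligated 5 were the summed markers of ductal and basal epithelium (3365 and 2453 FPKM), acinar cells (27500 and 17810 FPKM) and adipocytes (778 and 361 FPKM). So were those of skeletal muscle (568 and 271.5 FPKM), neutrophils (28.0 and 21.5 FPKM), germinal centre B cells, plasma cells, endothelium and erythroid cells. The part of any of these cells in the difference was not tested. With 1 library on either side no test was made. Cdkn1a went the other way, at 12.8 and 10.3 FPKM.

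Other cell cycle genes were counted from lists by role. Of 34 other G1/S genes, 21 were tested and limma called 0 in either direction, with 12 higher and 1 lower at an unadjusted p under 0.05, while voom called 10 higher and 0 lower. Under the same rules 17.1% of all genes tested were called higher by limma, 62.1% were higher at an unadjusted p under 0.05, and 27% were called higher by voom. The most abundant of them, Gins4, a subunit of the replicative helicase complex, differed by 0.42 ± 0.18 (adjusted p = 0.0610). Of the 21, 11 rose with Cd79a, against 10% of all genes tested. Of 34 other G2/M genes, 19 were tested, and 17 rose with Cd79a, against the same 10%. Part of this count was set by the filter, as with the mitotic genes. Of the 19, 4 were called higher, a share near that of all genes. The 4 were the condensin subunit Smc4 (1.47), the microtubule regulator Stmn1 (1.38), the chromosomal passenger protein Incenp (1.26) and the spindle protein Ckap2l (1.00). Of 18 other inhibitors and pocket proteins, 16 were tested, and 3 rose with Cd79a, a share not far from the 10% of all genes. Of the 16, 7 were called higher, against 17.1% of all genes. Those with the largest rise were the stress gene Gadd45b (2.10 ± 0.40, adjusted p = 0.00205), the Ink4 genes Cdkn2b (1.95 ± 0.28, adjusted p = 0.000472) and Cdkn2d (1.39), and the Cip/Kip gene Cdkn1c (1.32). Cdkn2b, which lies beside Cdkn2a, measured 1.45, 0.711, 0.374, 0.832 and 1.09 FPKM in the sham libraries and 2.40, 8.63, 6.39, 7.98 and 7.77 FPKM in the ligated libraries, and like Cdkn1a had a slope on Cd79a near 0 (-0.0101). Markers of other cells moved with the group as well. All 4 adipocyte markers and all 4 skeletal muscle markers were called higher, with median log2 differences of 5.03 and 4.49. Also higher were 4 of 4 neutrophil markers tested (median 2.75), 6 of 6 fibroblast markers (2.88), 7 of 7 macrophage markers (2.06), 4 of 4 endothelial markers (1.52) and 4 of 8 ductal and basal markers (0.98). Of the acinar markers, 5 of 7 were lower, against 1.16% of all genes tested. The summed muscle markers were 1.75 to 3.97 FPKM in sham glands and 22.6 to 568 FPKM in ligated ones. The summed macrophage markers were 142 to 229 FPKM in sham 2 to 5, 538 FPKM in sham 1 and 1086 to 1899 FPKM in ligated glands. The part of these cells in the cell cycle results was not tested.

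The promoters printed earlier were examples of a wider count. In RefSeq promoters of 300 bases (250 before and 50 after the start, GRCm38.p6), which were at hand for 38 of the 47 genes, CHR letters (TTTGAA or TTCGAA on either strand) were found in 14 of 18 mitotic genes (77.8%), 2 of 16 G1/S genes (12.5%), 0 of 4 inhibitors and 21.7% of 27025 genes. E2F letters (TTGGCGC or TTCCCGC on either strand) were found in 8 of 16 G1/S genes (50%). Among these were 6 of 7 licensing genes, 1 of 4 G1 cyclins and kinases and 1 of 5 DNA synthesis genes. They were also found in 3 of 18 mitotic genes (16.7%), 2 of 4 inhibitors and 7.79% of all genes. Of the genes tested between groups that had an entry, 13.7% held E2F letters and 16.1% CHR letters. CCAAT letters, which an E2F match followed by T also completes, were found in 16 of 18 mitotic genes and 41.1% of all genes, and 14 of 18 mitotic genes held CHR and CCAAT letters together, against 9.65%. Lists not used for these genes gave 22 of 30 other G2/M genes with CHR letters and 17 of 28 other G1/S genes with E2F letters. Of the tested cell cycle genes, 14 of 14 with CHR letters and 7 of 8 with E2F letters and no CHR rose with Cd79a. Of those with neither, 7 of 10 rose. Over all tested genes with a promoter entry, 8.89% rose. Of the 18 mitotic genes tested, 13 had passed the filter only through the 4 lymphoid libraries and ligated 5. The count for CHR letters was thus partly set by the filter and is no support for a link to the element. Among tested genes outside the fixed lists, 9.91% of those with CHR and CCAAT letters rose with Cd79a, against 7.9% of those with neither CHR nor E2F letters.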

How the data were processed

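Gene expression was measured by RNA sequencing in 5 sham and 5 ligated libraries, grouped by the labels. The authors deposited 1 table of FPKM for 55291 genes, with 0 columns left over. Per the submitters' processing notes the build is GRCm38 (mm10). Aligner, counter and annotation remain unnamed, not given in the sources used here. FPKM multiplied by GENCODE M21 merged exon length fell on whole reads for 98.3% to 98.4% of low values (below 200 reads, tolerance 0.01 read), which gave the depth. Whether 1 read is a read or a pair is not known.

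Tests used limma 3.58.1 in R 4.3.3 on log2(FPKM + 1) with a mean-variance trend, all 10 libraries and no covariate. Tests were two-sided and adjusted by Benjamini and Hochberg's method for the 11856 genes that reached 1 FPKM in at least 5 libraries. The pseudocount understates changes of low genes. The second fit added log2(Cd79a + 1). All 47 genes are named, and from other cell cycle lists up to 4 called genes by size, or the most abundant where 0 were called. The code was tested on simulated data. Members and lists were chosen with earlier results of these data known. P-values measure the spread between these mice. Alternatives were another pseudocount, other filters, median-ratio and equal-sum scaling, voom on recovered reads, a replicate block, and leaving out libraries. Promoter sequences are from RefSeq (GRCm38.p6).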

Additional observations from a re-analysis of the deposited data

Results flagged for a closer look

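In 5 libraries of a group, a highest or lowest value was marked when its gap to the nearest other value exceeded 0.71 of the range of the group. Of 94 groups (47 genes in sham and in ligated glands), 39 were marked. The share of all genes that this rule marks was not counted. The 47 genes share the same libraries, so the 94 groups are not independent. In 38 of the 39 the value far from the others was that of sham 1, and all 38 were high. Sham 1 lay above sham 2 to 5 in 49.6% of all genes tested.

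Among G1, licensing and synthesis genes these sham 1 values were, in FPKM, 11.55 for Ccnd2, 9.515 for Ccnd3, 1.626 for Cdc6, 6.746 for Cdt1, 7.847 for Mcm2, 12.42 for Mcm3, 14.28 for Mcm4, 12.89 for Mcm5, 12.97 for Mcm6, 8.507 for Mcm7, 33.53 for Pcna, 5.343 for Rrm1, 13.0 for Rrm2 and 2.019 for Tyms. For mitotic cyclins, kinases and regulators they were 6.949 for Ccna2, 4.583 for Ccnb1, 9.594 for Ccnb2, 2.476 for Cdk1, 0.3772 for Cdc25c, 4.711 for Plk1, 5.559 for Aurka, 4.514 for Aurkb, 2.202 for Bub1, 4.612 for Bub1b, 11.3 for Cdc20, 8.028 for Ube2c and 4.159 for Birc5. Chromosome and spindle genes gave 16.16 for Mki67, 9.127 for Top2a, 2.718 for Cenpa, 2.448 for Cenpe, 1.022 for Cenpf, 2.881 for Kif11, 2.709 for Kif20a, 3.409 for Nusap1, 4.182 for Tpx2 and 1.795 for Prc1. The inhibitor Cdkn2a gave 0.7916. Sham 1 was also the only sham library with Cd79a above 1 FPKM, and the part of lymphoid and parotid material in these values was not tested. In the ligated group the only marked value was Cdk4 in ligated 2, at 34.87 FPKM.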

How the results depend on the processing

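Of 780 fold changes of single genes under alternatives, 613 kept their direction or side of the threshold, 77 lost and 90 gained a call, and 0 called ones reversed. The 12 cell cycle genes called higher became 21 with a pseudocount of 0.1, 6 with no filter, 1 with median-ratio scaling, 32 with equal FPKM sums, 25 with voom, 2 with Cd79a as a covariate and 20 with no fold threshold, and 5 to 32 when 1 library was left out (32 without sham 1). They were 13 without the lymphoid and 18 without the parotid libraries. Of all genes, the 2031 called higher became 811 with median-ratio scaling, 5464 with equal sums, 3165 with voom and 6732 with no fold threshold. The 138 lower became 498, 65, 194 and 397, and 79 without the parotid libraries. The 34 slopes rising with Cd79a became 6 without the parotid libraries and 10 to 35 when 1 library was left out (10 without sham 1), and with median-ratio scaling 1 slope, that of Ccnd1, fell. Same-numbered sham and ligated libraries deviated together with correlations from -0.378 to 0.577, which cannot settle whether the numbers pair samples. Only sham 4 and 5 correlated best with their own number. With the replicate block 16 cell cycle genes were called higher, and 0 slopes. In the 100 bases before the start, CHR letters were in 21.1% of the cell cycle promoters, against 7.18% of all genes. In 300 bases these shares were 42.1% and 21.7%. E2F letters were in 15.8%, against 3.06% of all genes, and in 300 bases in 34.2%, against 7.79%. The cause of these shifts was not tested. Depth limits genes such as Cdc25c, which had 0 to 30 reads per library.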
